A study of Rattus norvegicus with 78 samples.

Results

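The Flinders Sensitive Line (FSL) and the Flinders Resistant Line (FRL) are rat lines bred selectively from Sprague-Dawley rats, the FSL as a genetic model of depression and the FRL as its control. In prefrontal/frontal cortex (P/FC, the whole frontal lobe), 5 of the 17 FSL arrays carried the transcript Fam111a at a level close to that of FRL rats, while the other 12 had it near the intensity of 30 used as a filter. The question addressed here was which other transcripts went with that FRL-like level. The arrays were selected on the measured intensity of the only probeset named for Fam111a, at 100 or more (high Fam111a) against under 100 (low Fam111a). The division is therefore not a labelled group of the study, and the values of Fam111a are given as a description with no test, in both regions.

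The whole series comprised 78 arrays, 1 for each biological replicate of a region, from 2 brain regions (P/FC and hippocampus, HIP) of adult male rats in 2 cohorts raised at different times. In the study both regions came from the same rats, so the P/FC and HIP arrays are not from separate animals. The arrays of P/FC were 17 FSL (9 in cohort 1 and 8 in cohort 2) and 22 FRL, and those of HIP were likewise 17 FSL and 22 FRL. Titles and the strain field were used for the line, as a source field of the FSL cortex samples spells out the sensitive line but gives the abbreviation FRL, and a description field of the FSL HIP samples does likewise. All rats had been through a forced swim test a week before the tissue was taken. The lines differ over the whole genome, so an FRL-like level of 1 transcript does not make an array FRL. With the authors' filter, which asks for an intensity over 30 in 50% or more of each line's arrays, 22370 P/FC and 21630 HIP probesets were kept, and the median intensity of an array lay between 60.8 and 66.0 in P/FC and between 56.8 and 63.0 in HIP. P/FC arrays carried the cortical markers Slc17a7, the vesicular glutamate transporter of cortical excitatory neurons (mean intensity 2815 in high-Fam111a, 2843 in low-Fam111a and 2669 in FRL arrays), and Camk2a (2017, 2411 and 2601 in the same groups).

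FAM111A is best known from human cells, where it is a trypsin-like serine protease that binds the replication clamp PCNA, helps replication forks pass protein obstacles on DNA and restricts the replication of some viruses. Dominant variants of the human gene cause Kenny-Caffey syndrome, a disorder of bone growth and parathyroid function. Its function in the adult brain is not well described. The 250 bases before the start of rat Fam111a (RefSeq, GRCr8, chr1:219065389-219065638, plus strand) are shown because this gene alone set the groups, with CCAAT and GGGCGG motifs (either strand) in capitals. The assembly is not from a Flinders rat, so a difference between the lines in this stretch cannot be read from it.
Fam111a upstream: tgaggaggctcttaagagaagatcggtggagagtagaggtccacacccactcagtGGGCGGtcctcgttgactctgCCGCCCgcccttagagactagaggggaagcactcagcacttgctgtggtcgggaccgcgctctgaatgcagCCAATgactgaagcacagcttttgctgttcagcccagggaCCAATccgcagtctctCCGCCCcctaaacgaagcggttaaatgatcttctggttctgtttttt
CCAAT occurred at 2 places on the plus strand, and 34% of the 33469 rat promoters of the same kind held it on either strand. GGGCGG occurred at 1 place on the plus and 2 on the minus strand, against 30.5% of promoters holding at least 1. These matches describe letters only.

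Fam111a fell into separate levels in FSL cortex. The 5 high-Fam111a arrays had intensities of 179.7 (cohort 1, replicate 2) and of 269.3, 230.0, 311.1 and 299.9 (cohort 2, replicates 2, 3, 6 and 7). The 12 low-Fam111a arrays ran from 25.7 through a median of 33.5 to 41.9, and the 22 FRL arrays from 174.4 through a median of 340.2 to 485.8. No FSL array lay between 41.9, the highest of the low arrays, and 179.7, the lowest of the high ones, a step of 4.29-fold. Means were 258 ± 53.9 (SD, n = 5) in high-Fam111a, 33.2 ± 4.82 (SD, n = 12) in low-Fam111a and 339 ± 80.9 (SD, n = 22) in FRL arrays. The high arrays lay within the FRL range, although in cohort 2 the arrays at 230.0 and 269.3 were below the lowest FRL array of that cohort (278.9).

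The high level was unevenly spread over the cohorts, at 1 of 9 FSL arrays in cohort 1 and 4 of 8 in cohort 2. All 22 FRL cortices were at 100 or more. Of the other 22369 kept probesets, 1 had as wide a step among the 17 FSL arrays with 2 or more arrays on each side, a probeset of Dgke (diacylglycerol kinase epsilon), and it put 15 arrays above its step, the 5 high-Fam111a arrays among them, so that it followed a different division.

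**Figure D1:**
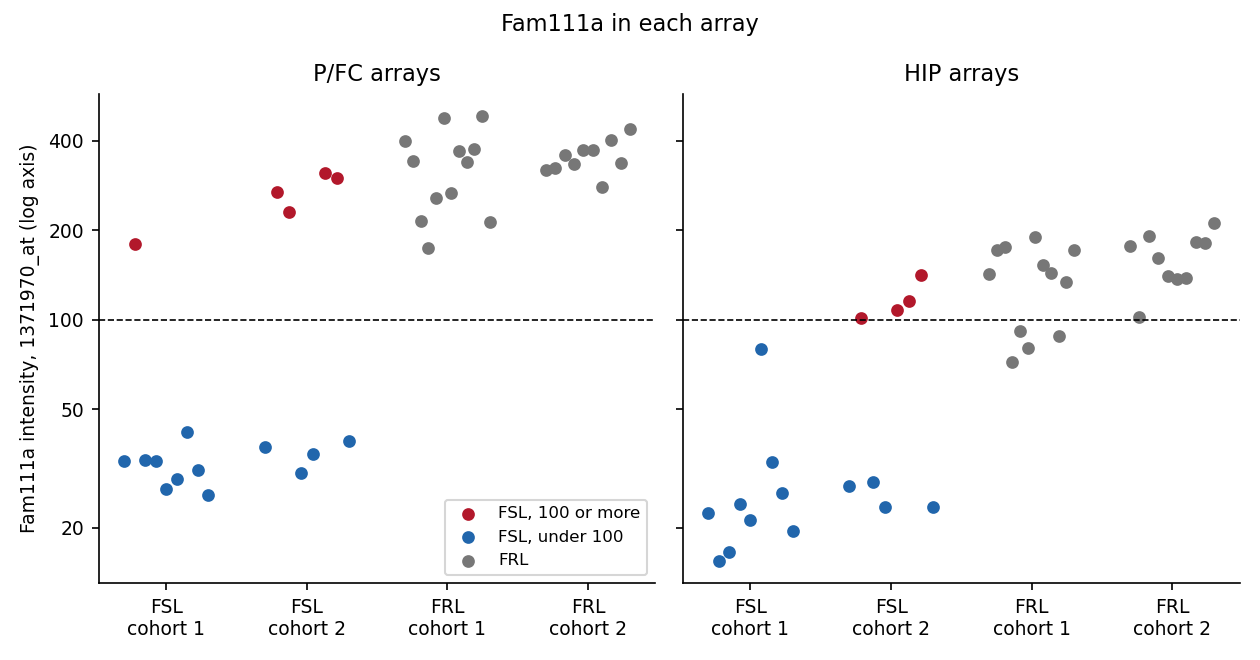
Fam111a intensity (log axis) in each of 78 arrays, by region, line and cohort, with the dashed line at 100. In P/FC 5 FSL arrays lie between 179.7 and 311.1, next to FRL, and 12 between 25.7 and 41.9. In HIP the upper FSL arrays lie between 79.7 and 141.2.

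Hippocampus had the same kind of division at lower intensity. FSL HIP arrays at 100 or more numbered 4, with Fam111a at 101.3, 107.6, 115.3 and 141.2, all of cohort 2 (replicates 2, 5, 6 and 7). Cohort 1 replicate 6 stood at 79.7, above the widest gap of the region (midpoint 51.4) though under 100, and the other 12 FSL HIP arrays ran from 15.5 to 33.2. FRL HIP arrays ran from 72.1 to 212.5, and 4 of them were under 100. Divided at the gap, HIP thus had 1 of 9 FSL arrays high in cohort 1 and 4 of 8 in cohort 2, the same numbers as P/FC.

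The labels number the arrays within each region and do not say which arrays came from 1 rat. Of the 5 numbers with high Fam111a in P/FC, 3 (cohort 2 replicates 2, 6 and 7) were also at 100 or more in HIP. Cohort 1 replicate 2 had 179.7 in P/FC and 15.5 in HIP, and cohort 2 replicate 3 had 230.0 and 28.5. In the other direction, cohort 2 replicate 5 had 35.4 in P/FC and 107.6 in HIP, and cohort 1 replicate 6 had 29.2 and 79.7.

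No other transcript passed the test between high-Fam111a and low-Fam111a cortex. Fam111a itself differed by 2.82 on the log2 scale, as the rule fixed. Of the other 22369 probesets 0 were called (0%, limma with cohort as covariate, Benjamini-Hochberg adjustment, smallest adjusted p = 0.450), and 1195 (5.34%) had an unadjusted p under 0.05, of which 633 (2.83%) were higher and 562 (2.51%) lower. The differences were small, with a median size of 0.07 log2, and 12 probesets differed by 1 log2 unit or more. The data were precise enough to bound most of them, since the 95% interval of 99.2% of probesets lay within 1 log2 unit of 0 and its median half-width was 0.22. The labels name separate biological replicates, 5 and 12 of them. The intervals are for single probesets and are not adjusted, so differences well beyond their half-width could also go uncalled. The dopamine receptor transcript Drd2, for example, differed by 1.49 (95% interval 0.64 to 2.34) and was not called.

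**Figure D2:**
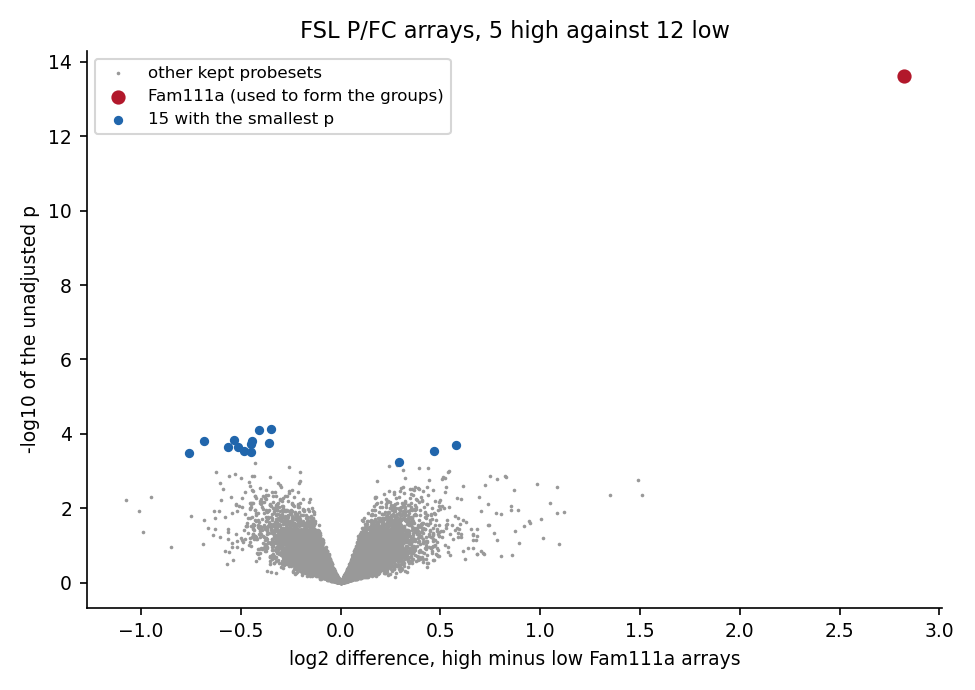
Log2 difference between 5 high-Fam111a and 12 low-Fam111a FSL P/FC arrays (x axis, high minus low) against -log10 of the unadjusted limma p (y axis), 1 point for each of 22370 probesets. Fam111a, whose values formed the groups, lies apart at 2.82, and none of the other probesets had an adjusted p under 0.05.

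The 15 probesets with the smallest p are named as a description, and none passed the adjusted threshold. Lower values prevailed among them, with 12 lower and 3 higher, and 12 of the 15 had a mean under 100 in low-Fam111a arrays. Cacna1b, the pore subunit of the N-type calcium channel, had intensities of 82.6, 94.2, 104.7, 97.5 and 92.3 in the high-Fam111a arrays, against 103.9 to 128.5 with a median of 118.9 in the low ones. The difference was -0.35 ± 0.07 (SE, adjusted p = 0.450), and 1 high array lay inside the low range. Wwox, a WW-domain oxidoreductase linked to tumour suppression and to brain disease in humans, had 47.8, 61.2, 42.7, 51.9 and 48.5 in high-Fam111a arrays, against 63.7 to 94.7 with a median of 69.1 in low ones. These ranges did not overlap (difference -0.53 ± 0.11, adjusted p = 0.450), and the FRL arrays, at 47.2 to 96.4, covered both.

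Of the other lower probesets, Ptgfr (the prostaglandin F receptor) differed by -0.41, Adprhl1 by -0.68 (-0.43 without cohort 1 replicate 2), Rdh16 (a retinol dehydrogenase) by -0.36, Clps (colipase, a cofactor of pancreatic lipase) by -0.45 and Ces1c (a carboxylesterase) by -0.51. Gkn2 differed by -0.56, Csnk1a1 (casein kinase 1 alpha) by -0.48 and Cmahp by -0.45. Kank2, a regulator of the actin cytoskeleton, was at 37.1, 44.3, 46.5, 47.1 and 33.8 in high-Fam111a and at 21.8 to 37.9 in low-Fam111a arrays (difference 0.58), and the ranges overlapped in 2 high arrays. Mccc2, a subunit of the mitochondrial enzyme that breaks down leucine, differed by 0.29. The remaining 3 probesets (-0.44, 0.47 and -0.76) had no gene name in the annotation used. Most of these 15 probesets were nearer to FRL in the low-Fam111a arrays. Clps, for example, differed from FRL by -0.42 log2 in high-Fam111a and 0.03 in low-Fam111a arrays, and Cacna1b by -0.30 and 0.05. Only Ptgfr (-0.19 and 0.21) and Mccc2 (0.09 and -0.20) were nearer to FRL in the high ones. As the 15 were chosen by the high against low difference, these distances are a description.

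Complete separation of the 5 high from the 12 low arrays was seen for 10 probesets other than Fam111a (0.0447% of 22369), 7 higher (0.0313%) and 3 lower (0.0134%). The lower ones were Wwox, Ppp6r1 (a regulatory subunit of protein phosphatase 6, -0.20) and Calml4 (-0.26). The higher ones included Pls1 (plastin, an actin-bundling protein, 0.37), Tcp1 (a subunit of the chaperonin that folds actin and tubulin, 0.11), Cpsf6 (an RNA cleavage factor, 0.11) and Zfp324 (0.20), with 3 unnamed probesets. The smallest adjusted p among these 10 was that of Wwox.

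Hippocampus, taken from the same rats, gave values that the rule of the cortex did not use. Between its own high-Fam111a and low-Fam111a arrays 0 of 21630 probesets were called (limma, smallest adjusted p = 0.761), with 760 (3.51%) at an unadjusted p under 0.05. Divided at the gap, 0 were called and 1054 (4.87%) had an unadjusted p under 0.05. Of the 15 cortical probesets above, 11 were kept in HIP, and 6 of the 11 had the same sign there when divided at the gap. An unadjusted p under 0.05 was reached by 2 of these, Cacna1b (-0.28, p = 0.0101 by limma) and Mccc2 (0.12, p = 0.0305 by limma), while Wwox had the opposite sign (0.21). Pls1 differed by 0.14 in HIP with p = 0.366 by limma.

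The contrast was also compared between regions and between cohorts. The fit between regions had no term for the rat, although both regions came from the same rats. Between regions 0 of 20963 probesets were called (limma interaction, 818 or 3.9% at an unadjusted p under 0.05), and the smallest p-values belonged to Dlgap5, Khdrbs2, Tpra1, Egln3 and Ccdc47. Between cohorts 2 of 22369 (0.00894%) were called, with 1098 (4.91%) at an unadjusted p under 0.05. They were Lmod3 (leiomodin 3, an actin filament nucleator of muscle) and Slirp (a mitochondrial RNA-binding protein), followed without passing by Akt2, an unnamed probeset and Hpx. All 5 rested on cohort 1 replicate 2, the only high-Fam111a array of its cohort.

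Slirp stood at 6.91 in that array, against 37.4 to 81.0 in the 8 low-Fam111a arrays of cohort 1. In cohort 2 it was 36.8 to 51.4 in high-Fam111a and 40.5 to 55.5 in low-Fam111a arrays. Lmod3 was 23.4 in the cohort 1 array, against 67.2 to 95.1 in the low arrays of cohort 1, and in cohort 2 it was 62.7 to 97.9 in high-Fam111a and 63.7 to 84.4 in low-Fam111a arrays. Akt2, a kinase of insulin signalling, had 12.3 in the cohort 1 array against 36.2 to 52.3 in its low-Fam111a neighbours, and Hpx, the haem-binding protein hemopexin, 10.5 against 37.8 to 55.8. With 1 array on this side of the comparison there was no replicate of it. Its values of Slirp, Lmod3, Akt2 and Hpx were all under the intensity of 30 used as a filter. FRL cortices ran from 8.95 to 67.5 for Slirp and from 33.6 to 109 for Lmod3.

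Elsewhere in the transcripts that part FSL from FRL, the high-Fam111a arrays lay near the other FSL arrays. Apart from Fam111a, 23 probesets, beside 22369 tested in P/FC, had no overlap between the 12 low-Fam111a FSL and the 22 FRL cortices. The 5 high arrays took no part in this choice. On a scale set to 0 at the mean of low-Fam111a FSL and 1 at the mean of FRL, Fam111a lay at 0.74, 0.91, 0.84, 0.98 and 0.96 in the 5 high arrays. The number of the 23 probesets nearer to FRL was 1, 1, 0, 3 and 1 in the same arrays, and their median position ran from 0.01 to 0.11. When each low-Fam111a array was left out in turn and placed in the same way, between 0% and 11.1% of the separating probesets were nearer to FRL, compared with 0% to 13.0% for the high arrays. No probeset was nearer to FRL in more than 2 of the 5 high arrays. The 1 that was nearer in 2 was Phgdh, the first enzyme of serine synthesis, and Cog3, Dhx36, Smim18 and Rab22a were nearer in 1 each.

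**Figure D3:**
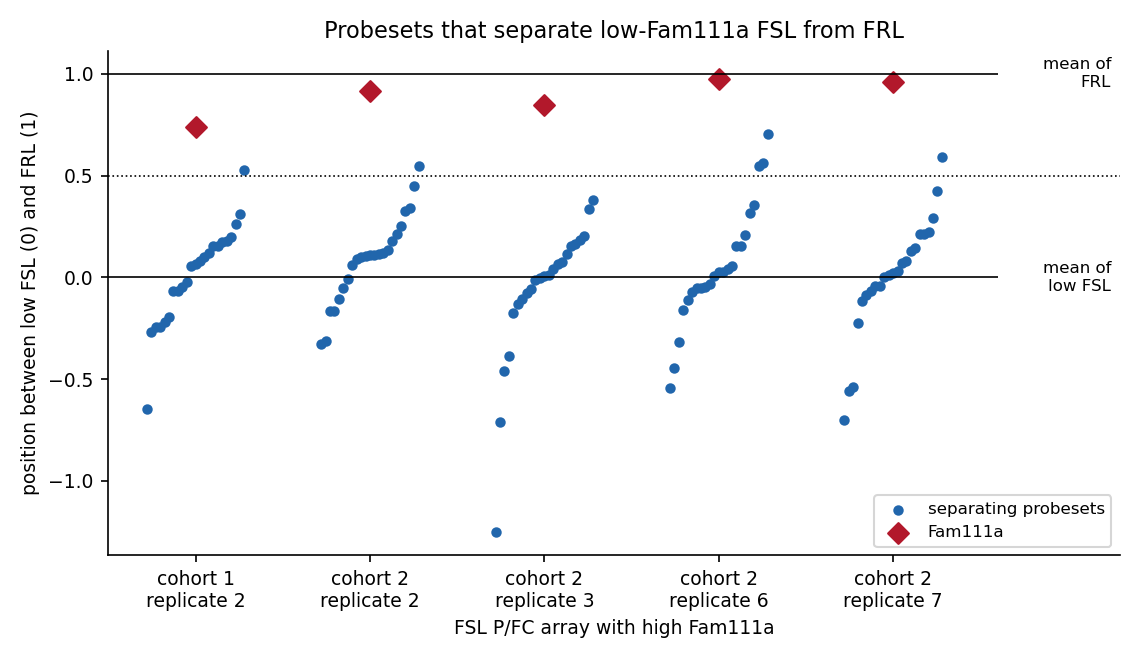
Position of each high-Fam111a FSL P/FC array between the mean of 12 low-Fam111a FSL arrays (0) and the mean of 22 FRL arrays (1) on the log2 scale, for 23 probesets that separate low-Fam111a FSL from FRL (circles) and for Fam111a (diamonds). Fam111a lies at 0.74 to 0.98, and at most 3 of the 23 circles of an array lie above the dotted midline.

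Line transcripts that the study singled out had like intensities in high-Fam111a and low-Fam111a FSL cortex. The mss4 probeset (named as the study names it) averaged 174 ± 13.6 in high-Fam111a, 177 ± 12.6 in low-Fam111a and 99.1 ± 13.6 in FRL arrays (SD, n = 5, 12 and 22). High and low arrays overlapped, and the 95% interval of the difference was -0.17 to 0.12.

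The 2 membrane proteins Tmem176a and Tmem176b, which are neighbours in the genome, and the enzyme Car3 (carbonic anhydrase 3) had lower means in FSL than in FRL. Tmem176a averaged 148 ± 12.5 in high-Fam111a, 140 ± 16.2 in low-Fam111a and 273 ± 61.5 in FRL arrays (SD), and the difference between high and low was 0.05 with a 95% interval of -0.14 to 0.24. Car3 averaged 68.4 ± 13.7, 65.1 ± 13.1 and 351 ± 162 in the same order (difference 0.23, interval -0.04 to 0.50). Rnase4, a secreted ribonuclease, averaged 43.0 ± 5.97, 37.6 ± 10.4 and 255 ± 164 (difference 0.26, interval -0.14 to 0.66). Tmem176b averaged 492 ± 28.4, 457 ± 37.9 and 596 ± 96.7 (difference 0.15, interval 0.01 to 0.30), and its adjusted p was 0.902 by limma.

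None of the genes that flank Fam111a on chromosome 1 passed the test. Of the 20 nearest genes with a kept probeset on each side, 40 in all, 0 were called, 21 were higher and 3 (7.5%, against 5.34% of all probesets) had an unadjusted p under 0.05, with a median difference of 0.01. The nearest kept genes were Dtx4 (-0.15, a ubiquitin ligase of Notch signalling) and Mpeg1 (0.00, the macrophage protein perforin-2) on one side and Cntf, Zfp91 (-0.01) and Lpxn (0.01) on the other. Cntf, a survival factor made by glia, had 53.0, 51.9, 48.2, 49.2 and 56.3 in high-Fam111a arrays, against 34.5 to 49.3 in low-Fam111a arrays (0.28 ± 0.09 SE, adjusted p = 0.902 by limma). Its ranges overlapped narrowly, and 3 of the 5 high arrays lay above all low ones. The other 2 were Ms4a1, the B-cell antigen CD20 (0.44), and Tmem132a (-0.26).

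Over the whole of chromosome 1, 135 of 1894 named probesets (7.13%) had an unadjusted p under 0.05, against 729 of 14055 (5.19%) on other chromosomes, and 0 were called on either. The gene Fam111al1 and the pseudogene Fam111a-ps1 lie on the same chromosome, and no probeset is named for them. Whether the Fam111a probeset also reads their transcripts was not tested.

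**Figure D4:**
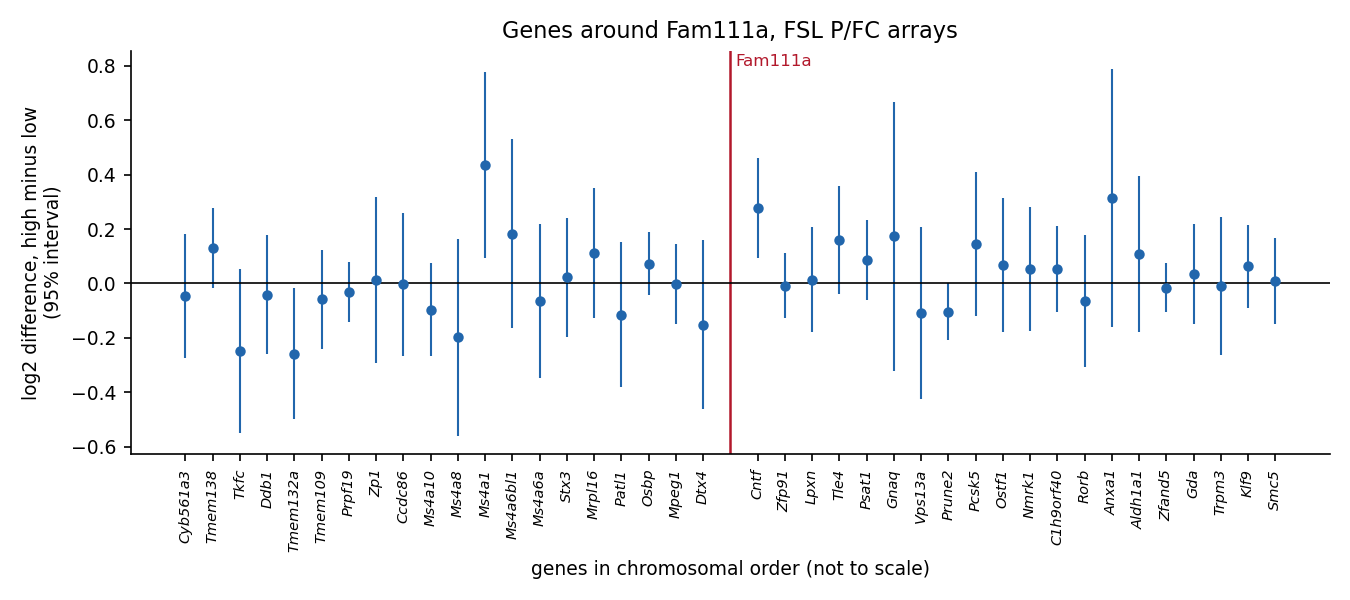
Log2 difference between high-Fam111a and low-Fam111a FSL P/FC arrays (y axis, bars are 95% intervals) for the 20 nearest genes with a kept probeset on each side of Fam111a, in gene order and not to scale. The estimates lie between -0.26 and 0.44, and 3 of the 40 intervals leave out 0.

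Gene lists for the known roles of FAM111A gave no call. Over the 6 lists on DNA replication, crosslink repair, interferon, proteases and calcium, 0 of 80 kept genes were called and 7 (8.75%, against 5.34% of all probesets) had an unadjusted p under 0.05. Over all 23 lists, cell type and housekeeping lists included, 21 of 227 (9.25%) had an unadjusted p under 0.05, and without the striatal list, which held 9 of them, 12 of 217 (5.53%). Of 14 genes of the replication clamp 11 were higher and 3 lower (median 0.09), and Atad5, which unloads PCNA (0.23), the DNA polymerase delta subunit Pold2 (0.15) and Pcna itself (0.11) had an unadjusted p under 0.05 with an adjusted p of 0.902 by limma in each. Of 14 helicase and origin genes 8 were higher (median 0.02, Orc6 0.23, or 0.15 without cohort 2 replicate 7), and of 14 genes of DNA-protein crosslink repair 5 were higher (median -0.03, the protease gene Sprtn 0.21). The median over all probesets was 0.00.

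Interferon-response genes, listed because FAM111A restricts viruses in human cells, were higher in 17 of 21 (median 0.08), and 2 had an unadjusted p under 0.05, the immunoproteasome subunit Psmb8 and the class I light chain B2m. Psmb8 stood at 62.3, 31.0, 33.6, 44.9 and 35.1 in high-Fam111a arrays, against 25.7 to 38.5 in low ones (0.51 ± 0.14 SE, adjusted p = 0.896 by limma), so that 2 of the 5 were above the low range. Without the array at 62.3 (cohort 1 replicate 2) the difference of Psmb8 was 0.27. Of 6 trypsin-like proteases of the cell, 3 were higher (median 0.00), with Klk6, a protease of myelinating glia, at 0.48. Of 11 genes of calcium and parathyroid signalling 6 were higher (median 0.02) and none had an unadjusted p under 0.05.

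Genes of transmission and activity also gave no call. The 5 kept transmitter receptors that the study singled out differed by -0.08 to -0.04, Htr1a by -0.07, Htr2a by -0.04 and Chrna7 by -0.08. The study chose these receptors, and its 16 kept line genes (12 higher, median 0.05), on these samples. The line genes include some that are higher in FSL than in FRL, such as Atic, and some that are lower, such as Car3. Their count and median therefore do not show a shift toward FRL or away from it. The probeset used here was not always the study's own, as for Cdh11 and Gabrb2. Of 15 immediate early genes 6 were higher (median -0.05), and Egr3 (-0.26) and Jun (-0.18), transcription factors induced by neuronal activity, had an unadjusted p under 0.05.

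Markers of striatal projection neurons formed the list with the largest median, 0.97, and all 10 kept members were higher in high-Fam111a arrays. Of these, 9 had an unadjusted p under 0.05 (2.83% of all probesets did so in this direction) and 0 were called, the smallest adjusted p being 0.896. Drd2, the dopamine D2 receptor, had 154.2, 131.3, 202.2, 98.9 and 173.2 in high-Fam111a arrays, against 29.9 to 204.3 with a median of 66.6 in low-Fam111a arrays (1.49 ± 0.40 SE). Adora2a, the adenosine A2a receptor of the same cells, differed by 1.35, the substance P precursor Tac1 by 1.12 and Ppp1r1b (DARPP-32) by 0.70. Low arrays covered the whole range of the high ones for Drd2, as some low arrays were as high as any.

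These markers were also read within each cohort. In cohort 2 their mean log2 intensity was 7.90 to 8.83 in the 4 high-Fam111a arrays and 7.01 to 7.65 in the 4 low ones, with no overlap. In cohort 1 it was 8.66 in the high-Fam111a array and 7.23 to 8.91 in the 8 low ones. The cohort-adjusted difference was 0.91 (exact permutation test within cohort, two-sided, p = 0.0206, adjusted over 17 measures 0.351). Without cohort 1 replicate 2 the count stayed at 9 of 10. The summed intensity of the list ran from 3424 to 6603 in high-Fam111a and from 2014 to 6813 in low-Fam111a arrays, and no listed marker that was kept was at 0. In HIP divided at the gap the median of the list was -0.02. Meninges markers had no overlap in cohort 2 either, with mean log2 intensities of 7.03 to 8.56 in the 4 high-Fam111a arrays and 6.49 to 6.90 in the 4 low ones, whereas in cohort 1 they were 6.40 in the high-Fam111a array and 6.23 to 7.97 in the 8 low ones. A share of striatal tissue in the dissected lobe and more of these transcripts per cell cannot be told apart in whole-tissue RNA. With the mean levels of the striatum and meninges markers as covariates, 0 probesets were called in P/FC and 1004 had an unadjusted p under 0.05 (limma).

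All 8 kept oligodendrocyte markers were higher, with a median of 0.18 in P/FC and 0.25 in HIP divided at the gap. The myelin protein Mog (0.27) and the tight-junction protein Cldn11 (0.18) had an unadjusted p under 0.05 in P/FC, and 3 of the 8 did in HIP. Their mean level ranged from 9.86 to 10.0 log2 in high-Fam111a and from 9.63 to 10.2 in low-Fam111a arrays, with an adjusted difference of 0.19 (exact permutation p = 0.0619, adjusted 0.522). Meninges markers were higher in 7 of 8 (median 0.43, exact permutation p = 0.271), the widest differences being Igfbp2 at 1.09 ± 0.61 (SE) and Col1a2 at 0.81 ± 0.59. Choroid plexus markers had a median of 0.00 over 4 kept members in P/FC and of 0.89 in HIP divided at the gap, the largest of any list there. In HIP the thyroid hormone carrier Ttr differed by 2.15 (unadjusted p = 0.0373 by limma) and Enpp2 by 0.98 (unadjusted p = 0.0384 by limma), and neither was called. Blood cell markers, of which 3 of 12 were kept, were all higher, with a median of 0.30 in P/FC and 0.27 in HIP divided at the gap. None had an unadjusted p under 0.05 in P/FC, and in HIP Hbb differed by 0.55 (unadjusted p = 0.0456 by limma, not called). Medians over the P/FC markers of neurons (-0.04), astrocytes (0.01), microglia (0.03) and endothelial and mural cells (0.05) were close to 0.

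**Figure D5:**
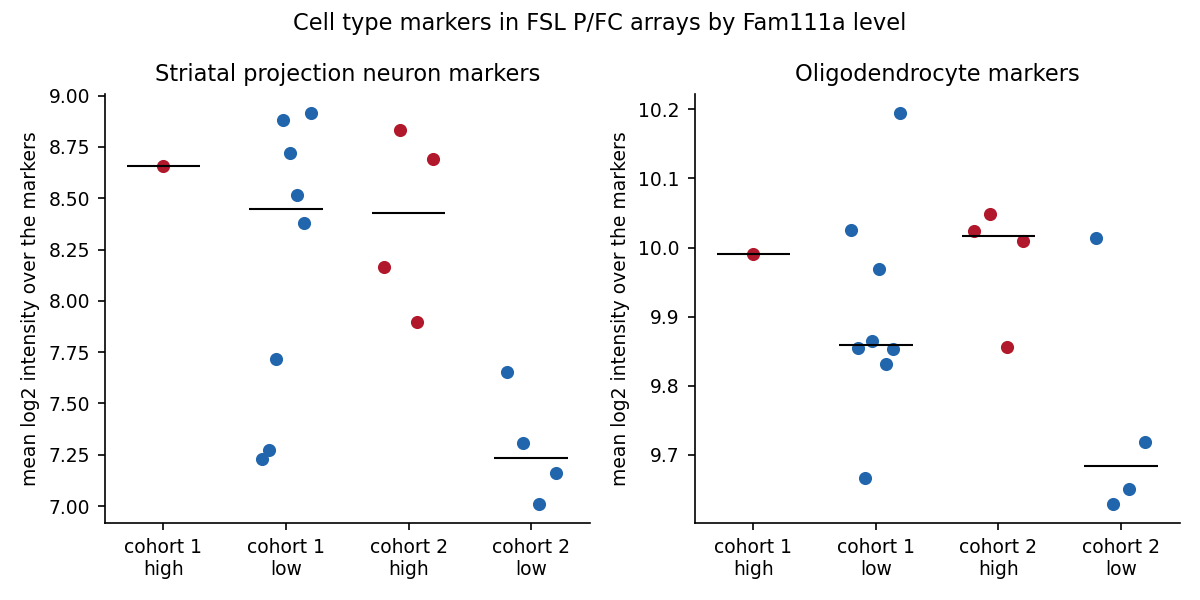
Mean log2 intensity of 10 striatal projection neuron markers and of 8 oligodendrocyte markers in each FSL P/FC array, by cohort and Fam111a level (lines are medians). In cohort 2 the striatal values are 7.90 to 8.83 in high-Fam111a and 7.01 to 7.65 in low-Fam111a arrays, and in cohort 1 the 8 low-Fam111a arrays run from 7.23 to 8.91.

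Measures of RNA quality did not pass a test between the groups. The ratio of the 3' to the 5' Gapdh control probesets was 0.79 ± 0.05 in high-Fam111a and 0.77 ± 0.07 in low-Fam111a arrays (log2, SD, n = 5 and 12), and that of Actb 0.81 ± 0.09 and 0.70 ± 0.14. The cohort-adjusted difference was -0.03 for Gapdh (exact permutation within cohort, p = 0.265) and 0.02 for Actb (exact permutation within cohort, p = 0.743). The share of probesets above 30 was 73.2% and 73.0%.

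Transcripts whose level ran most like that of Fam111a were ranked over the 34 FSL arrays of both regions, after each was centred within its region. Ninj2, an adhesion protein, came first with a Spearman correlation of 0.68, followed by the phosphatase Dusp3 (0.67), the growth factor Igf1 (0.66), Ndrg1 (0.64) and the chloride exchanger Clcn3 (0.64). An unnamed probeset (0.63), Pls1 (0.63), Sccpdh (0.63), the motor protein Myo1e (0.63) and the lipid kinase Pip4k2a (0.63) completed the 10, and the 99th percentile of 20963 probesets was 0.51. In the cohort-adjusted fit between high-Fam111a and low-Fam111a cortices Igf1 differed by 0.43, Ndrg1 and Pls1 by 0.37 and Ninj2 by 0.23, each with an adjusted p of 0.902 by limma, while Dusp3 (0.05), Clcn3 (0.06), Sccpdh (0.02), Myo1e (0.04) and Pip4k2a (0.08) were near 0. The ranking was not centred by cohort, and the arrays of each region came from both cohorts. High Fam111a was commoner in cohort 2 (4 of 8 FSL cortices, against 1 of 9 in cohort 1). A difference between the cohorts can therefore enter these correlations, which describe the ranking only.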

How the data were processed

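Total RNA of P/FC and HIP was measured on Affymetrix rat genome arrays. The authors deposited background-subtracted intensity values normalised across arrays in Rosetta Resolver, with 31099 probesets an array. Intensities below 1 were raised to 1 before the log2 step, 57 control probesets were left out, and a probeset was kept where 50% or more of each line's arrays of the region exceeded 30. FSL arrays were divided at an intensity of 100 for the Fam111a probeset, and the difference high minus low came from limma 3.58.1 (R 4.3.3), cohort being a covariate, 2-sided, with Benjamini-Hochberg adjustment over all kept probesets and a threshold of 0.05. The study's labelling batch was not used, since the labels do not give it. The fit was tested on simulated data. Markers and RNA quality were compared by exact permutation within cohort (630 arrangements, smallest possible p = 0.00159). Of the kept P/FC probesets 16015 had 1 gene name, 347 several and 6008 none, from the platform annotation. One probeset a gene, the brightest, stood for list members. Genes were named as Fam111a, the 15 probesets with the smallest p because fewer than 10 passed, up to 4 of each list by p, the nearest neighbours, the line genes of the study, the 5 with the smallest p for each difference between regions and cohorts, and the 10 most like Fam111a. Non-overlapping probesets, Phgdh and the other line-separating genes, and the nearest neighbours that did not pass, were named after their values were seen. Gene order and promoters came from RefSeq (GRCr8). The members and lists were chosen with earlier results of these data known.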

Additional observations from a re-analysis of the deposited data

Results flagged for a closer look

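For 20 probesets other than Fam111a, the value farthest from the rest of the 5 high-Fam111a P/FC arrays was compared with the range of the group, and for 3 of them it stood apart by more than Dixon's 95% critical value, where chance gives about 1 in 20. These were an unnamed higher probeset (48.984), an unnamed lower one (43.869) and Mccc2 (278.57). The array was cohort 1 replicate 2 each time, the only cohort 1 array beside 4 of cohort 2, and the comparison did not take cohort into account. All 3 probesets were among the 15 chosen for the smallest p in the cohort-adjusted contrast on these same arrays. The rate of 1 in 20 need not hold for probesets chosen in that way.

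The difference between high-Fam111a and low-Fam111a cortex itself differed between cohorts (cohort 2 minus cohort 1, limma interaction) for Slirp by 2.8163 (adjusted p = 0.0280) and for Lmod3 by 2.0181 (adjusted p = 0.00896). Both values rest on the single high-Fam111a array of cohort 1.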

How the results depend on the processing

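The count of 0 calls in P/FC also held with stricter and FSL-only filters, quantile normalisation, 16 added before the logarithm, no cohort covariate, Fam111a as a continuous term, all arrays in the fit, a plain linear model, RNA-quality, marker or residual-component covariates and cohort 2 alone. It was 0 to 0 when each array was left out. With no filter it was 1 (Fas), and in cohort 1 alone, with 1 high array, 7, Slirp and Lmod3 among them. HIP gave 1 call without the cohort covariate and 0 to 1 when each array was left out, the 1 being Nrgn without cohort 2 replicate 8. Cohort 1 alone could not be fitted in HIP, which has no array at 100 or more there. The difference between cohorts gave 13 calls with no filter, 1 with 16 added and 0 with a plain linear model, against 2. With the replicate number as a random block 0 were called in P/FC (1120 at an unadjusted p under 0.05, block correlation 0.08) and 0 in HIP (756, correlation 0.04). This block joined same-numbered arrays of the 2 cohorts, which were different rats, so it could not serve as a check on shared rats. Some differences changed sign in some settings, and not all of these were near 0 in the main fit. Jun was 0.0044 with no cohort covariate, against -0.18 in the main fit. The mss4 probeset was 0.0060 with Fam111a continuous and 0.0475 in cohort 2 alone. With striatum and meninges scores as covariates Ppp1r1b, itself a striatum marker, was -0.11, against 0.70 in the main fit. Rnase4 was -0.12 with these covariates, against 0.26. With each array left out mss4 ran from -0.0504 to 0.0475 and Tmem176a from -0.0049 to 0.113. The causes were not tested. Counts of striatal markers at an unadjusted p under 0.05 were 9 of 10 without cohort 1 replicate 2, and oligodendrocyte markers 3 of 8, alternatives chosen after seeing the data. The number of high arrays, 5, limits the precision.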
